A study of Mus musculus with 233 samples.

Results

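Huntingtin (Htt) and 9 genes of proteins known for binding it, modifying it or responding to its mutation were followed through bulk RNA-seq of mouse striatum. The 10 genes were chosen by name and not by a cut on measured values, although earlier results of these data were known. The genes were Htt, Hap1, Hip1, Hip1r, Pacsin1, Sh3gl3, Zdhhc17, Zdhhc13, F8a and Rrs1. They are 10 of 41129 gene entries in the deposited tables, and 1 further entry, written there as the Htt identifier with the ending HD and called Htt.HD below, was taken with them. The study set out to lower mutant huntingtin in the striatum of zQ175 mice with a zinc finger repressor. Each mouse received a different AAV vector in each striatal hemisphere, and 120 mice gave 233 libraries, 113 mice giving a library from both sides and 7 from 1 side. The libraries fall into 30 groups of 6 to 8.

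The zQ175 mice were heterozygous knock-in animals, in which exon 1 of 1 mouse Htt allele was exchanged for human HTT exon 1 with an expanded CAG tract; WT mice were their littermates. The nZFP vector carried the active repressor ZFP30645, made to bind expanded CAG repeats, and the DBD vector carried the same protein without its DNA-binding domain, both driven by the human synapsin promoter and so meant for neurons. The Estop vector held a stuffer sequence and encoded no protein. The 5 cohorts differed in age and duration: 2M_6M (injected at 2 months and collected at 6 months), 2M_8M (2 and 8 months), 6M_8M (6 and 8 months), 6M_10M (6 and 10 months) and 6M_12M (6 and 12 months). Both sexes were used, and every group received a virus. Each cohort held zQ175 nZFP, zQ175 DBD, zQ175 Estop, WT nZFP, WT DBD and WT Estop libraries.

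Huntingtin is a large scaffold protein that links membranes to motors and to the endocytic machinery, and expansion of the CAG repeat in its first exon causes Huntington's disease, in which striatal medium spiny neurons are lost early. Hap1 and F8a belong to its transport and endosome complexes, Hip1, Hip1r, Pacsin1 and Sh3gl3 act in clathrin-mediated endocytosis and membrane bending, and Zdhhc17 and Zdhhc13 are palmitoyltransferases that attach fatty acids to it. Rrs1 is a ribosome assembly factor known as an early changing transcript in knock-in Huntington's disease mice. In mice that carry an expanded repeat, incomplete splicing of Htt exon 1 is known to give a short transcript that ends in intron 1.

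The alleles differ in exon 1, where zQ175 mice carry human sequence with the expanded repeat, so the start of the mouse Htt coding sequence is shown first (coding bases 1 to 120, exon 1, chr5:34761907-34762026, plus strand, GRCm38), with its run of 4 CAG units in capitals.
Htt: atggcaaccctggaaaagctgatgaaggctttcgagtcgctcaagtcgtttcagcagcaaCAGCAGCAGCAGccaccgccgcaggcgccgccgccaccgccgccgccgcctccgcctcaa
Of 21901 protein-coding genes in the mouse annotation, 2.95% had a transcript with a CAG run of 4 or more, and 5.56% had one of CAG or CTG. Among the partners the longest runs lay in the coding sequences of F8a (4 CTG units), Hap1 (3 CAG units) and Zdhhc13 (3 CTG units), shown with the run in capitals on the strand of the transcript.
F8a: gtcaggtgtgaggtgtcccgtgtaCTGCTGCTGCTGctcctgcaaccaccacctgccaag
Hap1: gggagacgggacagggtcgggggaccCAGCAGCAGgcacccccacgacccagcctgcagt
Zdhhc13: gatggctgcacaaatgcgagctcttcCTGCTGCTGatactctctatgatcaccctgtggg
The promoter windows of 8 members were found in the RefSeq table (GRCm38.p6, 11 windows of 250 bases before to 50 bases after a start). The 9 letters CAGCAGCAG, searched on both strands, were in 0 of these 11 windows and in 1.82% of 32851 promoter windows.

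The libraries held 27993227 to 61296096 expected counts (median 37385970), so that the members had between 323 counts for F8a and 15294 for Hap1 in any 1 library. Levels are given as CPM, counts scaled to TMM-adjusted library sizes. In 4 libraries the vector reads went against the label (WT DBD replicates 7 and 8 and zQ175 nZFP replicate 5 of 6M_8M, and WT DBD replicate 6 of 2M_6M), and 3 others stood apart with few counts on long transcripts (zQ175 DBD replicate 3 of 2M_6M, and zQ175 nZFP replicate 2 and WT DBD replicate 2 of 6M_10M). In 6 libraries of 6M_8M, markers of septal and hypothalamic neurons summed to 173 CPM or more, against a median of 111 CPM over all libraries. The cut, 1.5 times that median, was set after the data were seen. Of the listed markers, Hcrt, Oxt, Pmch, Avp and Gal had no more than 0.872 CPM in any library. The highest single values were 227 CPM for Zic1, 151 CPM for Baiap3, 100 CPM for Ecel1 and 50.1 CPM for Trpc4. The name of the sum is thus that of its list, and the source of these counts was not tested. Summed markers of medium spiny neurons, which define the striatum, lay between 7108 and 22418 CPM in all 233 libraries. These libraries stayed in the fits, and results that move without them are given with both values. Whether the libraries against their labels carry the labelled genotype was not tested. In bulk tissue, fewer cells of a type and less RNA per cell cannot be told apart.

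Htt differed most plainly in the length of transcript that the quantification assigned its reads to. The deposited counts and TPM values (transcripts scaled by length and to the library total) differ by the effective length the quantification gave each gene in each library, and their ratio, scaled with 297 single-transcript genes of known length, returns that implied length in bases. Under the DBD virus Htt was shorter in zQ175 than in WT striatum in all 5 cohorts, by 0.27 to 0.49 on the log2 scale, and under nZFP it lay nearer to the WT length. The implied length is a description chosen after the data were seen.

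In 2M_6M the implied Htt length had a lowest, median and highest value of 4714, 9725 and 10186 bases in zQ175 DBD libraries, against 12142, 12396 and 12556 bases in WT DBD libraries. In 2M_8M it was 9035, 9933 and 10441 bases in zQ175 DBD, against 12384, 12473 and 12625 bases in WT DBD. In 6M_8M it was 9043, 9788 and 10823 bases in zQ175 DBD, against 11017, 12193 and 12435 bases in WT DBD. The zQ175 libraries lay below every WT library in each of these cohorts. In 6M_10M the values were 9356, 10018 and 10771 bases in zQ175 DBD, against 11830, 12484 and 12579 bases in WT DBD. In 6M_12M they were 9768, 10446 and 11090 bases in zQ175 DBD, against 12400, 12489 and 12547 bases in WT DBD. The groups did not overlap in these cohorts either, and the lowest WT value of 6M_8M came from WT DBD replicate 7, whose vector reads went against its label.

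With limma on log2 length over the 5326 genes whose implied length varied, the Htt difference of zQ175 DBD minus WT DBD was -0.49 in 2M_6M (adjusted p = 0.00015), -0.34 in 2M_8M (adjusted p = 6e-17), -0.30 in 6M_8M (adjusted p = 5.4e-13), -0.30 in 6M_10M (adjusted p = 1.6e-06) and -0.27 in 6M_12M (adjusted p = 7.7e-16). Without zQ175 DBD replicate 3, a library that stood apart, the 2M_6M difference was -0.34 (adjusted p = 2.3e-17). The mean over cohorts was -0.34 (SE 0.019), the largest shift of any of the 5326 genes in that comparison. Of those genes 1.30%, 2.03%, 0.620%, 1.90% and 1.84% passed at an adjusted p of 0.05 in the 5 cohorts in that order, and 12.0% in their mean. Exact 2-sided permutation tests on Htt alone gave p = 0.000155 in 3 cohorts and p = 0.000311 in the other two, the smallest these group sizes allow. Against the Estop virus in place of DBD the 2M_6M difference was -0.24 and did not pass (limma adjusted p = 0.20). The groups were nevertheless apart, at 9720, 10533 and 11171 bases in zQ175 Estop, against 12272, 12422 and 12587 bases in WT Estop. The fit of a cohort takes its spread from all 6 groups, here with zQ175 DBD replicate 3 among them, and the part of that library was not tested.

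With the repressor the implied Htt length was greater in zQ175 striatum. In 2M_6M the lowest, median and highest implied lengths were 11270, 11743 and 12152 bases in zQ175 nZFP libraries, against 4714, 9725 and 10186 bases in zQ175 DBD. In 2M_8M they were 10568, 11542 and 12145 bases in zQ175 nZFP and 9035, 9933 and 10441 bases in zQ175 DBD. In 6M_8M they were 11300, 11534 and 12463 bases in zQ175 nZFP and 9043, 9788 and 10823 bases in zQ175 DBD. No nZFP library reached down to the DBD range in these 3 cohorts. In 6M_10M they were 8957, 11712 and 11884 bases in zQ175 nZFP, against 9356, 10018 and 10771 bases in zQ175 DBD. In 6M_12M they were 11943, 12163 and 12289 bases in zQ175 nZFP, against 9768, 10446 and 11090 bases in zQ175 DBD. The groups were apart in 6M_12M and overlapped in 6M_10M, where the lowest nZFP value was replicate 2, a library that stood apart.

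The difference of zQ175 nZFP minus zQ175 DBD was 0.41 in 2M_6M (limma adjusted p = 0.0046), 0.23 in 2M_8M (adjusted p = 1.1e-10), 0.26 in 6M_8M (adjusted p = 1.2e-10), 0.16 in 6M_10M (adjusted p = 0.24) and 0.22 in 6M_12M (adjusted p = 8.1e-14). Without the libraries that stood apart the 2M_6M difference was 0.26 (adjusted p = 1.5e-13) and the 6M_10M difference 0.23 (adjusted p = 1e-05). Of the 5326 genes, 1.11%, 0.732%, 0.0188%, 0.0188% and 0.169% passed in the same order of cohorts, and in 6M_8M Htt was the only one. The mean over cohorts was 0.26 (SE 0.019, adjusted p = 4.2e-26), again the largest shift of the 5326 genes, of which 3.10% passed. With the mouse as a block, which pairs hemispheres, the 2M_6M difference was 0.33 and did not pass (adjusted p = 0.48).

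In WT striatum Htt length did not pass between nZFP and DBD in any cohort (log2 differences from -0.01 to 0.04, with 0.0376%, 7.02%, 0.0188%, 0.0376% and 0.0563% of genes called, and 0.150% in the mean). The interaction, the repressor's difference in zQ175 minus its difference in WT mice, was 0.24 in 2M_8M (limma adjusted p = 8.1e-07), 0.22 in 6M_8M (adjusted p = 0.00012) and 0.22 in 6M_12M (adjusted p = 1.3e-08). It did not pass in 2M_6M (0.41, adjusted p = 0.37) or 6M_10M (0.16, adjusted p = 0.39), and its mean over cohorts was 0.25 (adjusted p = 1.9e-13). Without the libraries that stood apart it passed in both, at 0.25 in 2M_6M (adjusted p = 7.7e-09) and 0.23 in 6M_10M (adjusted p = 0.007). In this interaction 0.0376%, 5.58%, 0.0188%, 0% and 0.0376% of genes passed in the 5 cohorts, and 0.169% in the mean. Under the repressor Htt was still shorter in zQ175 nZFP than in WT nZFP libraries by a mean of -0.09 (adjusted p = 0.00015, with 5.91% of genes called). In single cohorts that difference passed only in 2M_8M (-0.11, adjusted p = 0.0033), with 0.0188%, 2.42%, 0.488%, 0.620% and 0.845% of genes called, and in all 5 by an exact permutation test on Htt alone. Without the libraries that stood apart it also passed in 2M_6M (-0.09, limma adjusted p = 0.017).

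The pair of control viruses also differed in zQ175 mice. The median Htt length of zQ175 DBD libraries was 9725, 9933, 9788, 10018 and 10446 bases in the 5 cohorts, against 10533, 10510, 10333, 10181 and 11048 bases in zQ175 Estop. The mean log2 difference of DBD minus Estop was -0.11 (limma adjusted p = 0.00031, with 0.0939% of genes called). It passed in 2M_8M (-0.10, adjusted p = 0.046) and 6M_12M (-0.09, adjusted p = 0.0026), where Htt was the only gene called (0.0188%), and 0% of genes passed in the other 3 cohorts. Without the libraries that stood apart it also passed in 2M_6M (-0.10, adjusted p = 0.014). Taken over all cohorts, 38 zQ175 nZFP libraries ran from 8957 to 12463 bases (median 11743), 79 zQ175 libraries with a control virus from 4714 to 11448 bases (median 10237), and 116 WT libraries from 11017 to 12625 bases (median 12442). Only 1 of the 116 WT libraries, WT DBD replicate 7 of 6M_8M, fell within the range of the zQ175 control libraries. Of the libraries against their labels in 6M_8M, WT DBD replicates 7 and 8 had 11017 and 11809 bases. Their repressor levels were 320.6 and 480.5 CPM, and replicate 8 had 6.17 Htt.HD counts. In that cohort zQ175 nZFP replicate 5 had 12463 bases, 0 Htt.HD counts and a repressor level of 8.55 CPM. WT DBD replicate 6 of 2M_6M had 12384 bases. Whether these libraries carry the genotype of their labels was not tested.

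**Figure D1:**
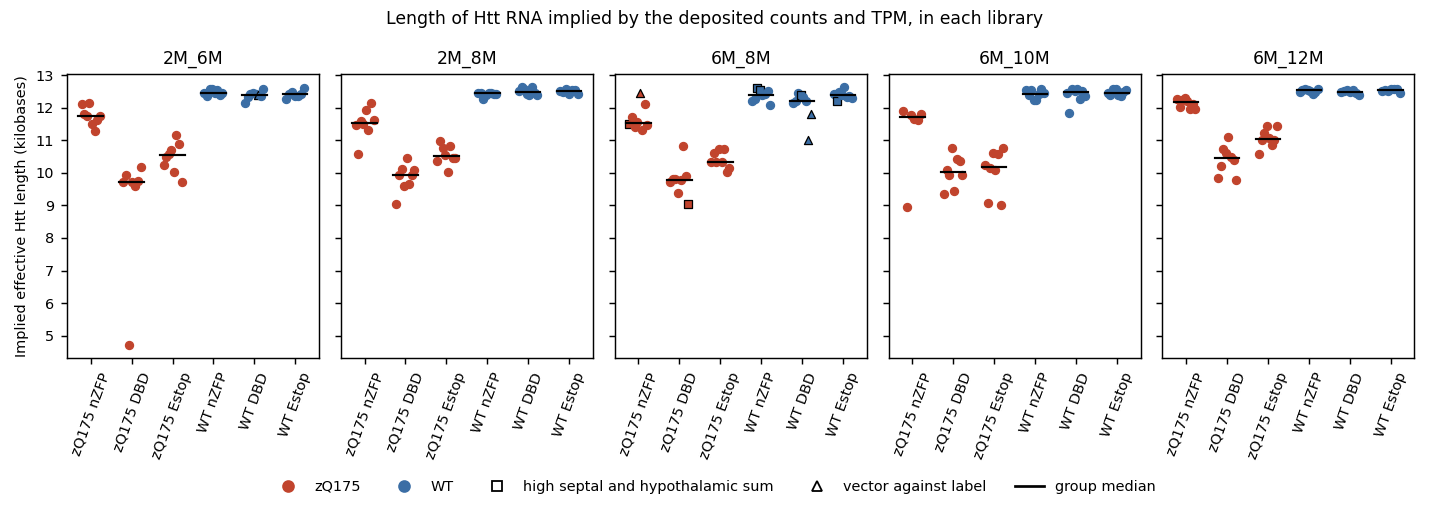
Implied effective length of Htt (y axis, kilobases) in each library, by cohort and group, with a bar at each group median. Triangles mark libraries whose vector reads went against their label. The zQ175 DBD libraries lie below every WT DBD library in each of the 5 panels, and the zQ175 nZFP medians of 11534 to 12163 bases lie between those of zQ175 DBD and WT.

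Only 4 of the other members varied enough in implied length to be tested. Group medians of implied length spanned 28.8% of their level for Htt, 8.29% for Zdhhc13, 5.67% for Pacsin1, 2.79% for Hap1 and 1.55% for Sh3gl3. Rrs1, F8a and Hip1 had 1957, 2393 and 7500 bases in every group, with group medians that spanned 0.00142% or less. Their implied length hardly varied in any library, so a shift could not be seen in them. Hip1r and Zdhhc17 also varied too little to be tested. None of the 4 other members that were tested passed for genotype or for the repressor in zQ175 mice. Pacsin1 and Zdhhc13 passed in the 2M_8M interaction (-0.11 and -0.12), a cohort and comparison in which 5.58% of genes did.

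The annotation (GENCODE vM21) lists 8 Htt transcripts, of which 1 is protein-coding, with 67 exons and 13215 bases. The other 7 are retained-intron transcripts of 457 to 4382 bases, and 2 of them, of 4382 and 3225 bases, start in exon 1. The tables used here hold gene-level values, and which transcripts received the Htt reads was not tested. A library's share of counts on long transcripts also moved with Htt length: across 233 libraries, within groups, Pearson's r with an index of that share was 0.47, and 0.27 over the 230 libraries left without those that stood apart (a description over libraries, some of which share a mouse).

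Dividing the Htt count by its implied length changed which comparison stood out. Since the implied length is count over TPM, the quotient is the deposited TPM rescaled library by library, apart from rounding. The check with TPM below is therefore not a separate measure. Per kilobase of implied length, Htt CPM did not differ past the threshold between zQ175 DBD and WT DBD in any cohort (log2 differences of -0.08, -0.17, 0.11, 0.03 and -0.27 in the 5 cohorts, exact permutation tests adjusted over them, adjusted p between 0.54 and 0.98). Between zQ175 nZFP and zQ175 DBD it was lower past the threshold in 4 of 5 cohorts. Of these, 2M_8M did not pass when TPM was used in place of CPM per kilobase (-0.68, exact permutation, adjusted p = 0.0575).

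In 2M_6M the lowest, median and highest values were 5.85, 6.78 and 7.53 CPM per kilobase in zQ175 nZFP, against 8.45, 9.08 and 10.2 in zQ175 DBD. In 6M_10M they were 2.88, 6.44 and 7.47 in zQ175 nZFP, against 8.41, 9.24 and 11.0 in zQ175 DBD. These groups did not overlap. In 2M_8M they were 3.72, 4.72 and 8.66 in zQ175 nZFP, against 5.99, 8.79 and 10.2 in zQ175 DBD. In 6M_8M they were 6.31, 7.19 and 13.0 in zQ175 nZFP, against 8.41, 9.95 and 11.6 in zQ175 DBD. The top nZFP value there was replicate 5, a library with 0 Htt.HD counts and a repressor level of 8.55 CPM. In 6M_12M they were 5.46, 6.87 and 7.28 in zQ175 nZFP, against 4.14, 9.52 and 10.4 in zQ175 DBD.

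The log2 differences were -0.47 in 2M_6M (exact permutation p = 0.000311, adjusted p = 0.00155), -0.60 in 2M_8M (p = 0.0112, adjusted p = 0.0186), -0.34 in 6M_8M (p = 0.0292, adjusted p = 0.0365) and -0.71 in 6M_10M (p = 0.000666, adjusted p = 0.00167). In 6M_12M the difference was -0.23 and did not pass (exact permutation p = 0.20). Without the libraries whose septal and hypothalamic markers were high, the 6M_8M value did not pass (exact permutation, adjusted p = 0.0699), and without those against their labels it was -0.45. In WT mice the nZFP minus DBD difference passed only in 2M_8M (-0.47, exact permutation, adjusted p = 0.0443). In 2M_8M an index of the share of counts on long transcripts (mean log2 CPM of long minus that of short transcripts) also had unlike levels, with medians of 0.40 in zQ175 nZFP, against 0.87 in zQ175 DBD, and of 0.23 in WT nZFP, against 0.71 in WT DBD. Its part in these differences was not tested.

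The Htt.HD entry, whose sequence is not given in the sources used here, behaved as a short feature with an effective length of 839 bases. At least 1 count was assigned to it in 91 of 117 zQ175 libraries (highest 11.6 counts) and in 14 of 116 WT libraries (highest 6.17 counts, in a library against its label). By virus, these were 18 of 38 zQ175 nZFP libraries (47.4%, exact Clopper-Pearson 95% interval 31.0% to 64.2%), 35 of 39 zQ175 DBD libraries (89.7%, 75.8% to 97.1%) and 38 of 40 zQ175 Estop libraries (95%, 83.1% to 99.4%). In WT mice they were 4 of 40 nZFP (10%, 2.79% to 23.7%), 4 of 39 DBD (10.3%, 2.87% to 24.2%) and 6 of 37 Estop libraries (16.2%, 6.19% to 32.0%). The intervals cover counting of libraries only, and with at most 12 counts in a library no fold change is given.

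Per transcript length, Pacsin1 was the most abundant member, with a median over the 30 group means of 158 TPM. Sh3gl3 (78.9 TPM) and Hap1 (78.5 TPM) followed, and Sh3gl3 was above Hap1 in only 118 of 233 libraries. Zdhhc17 (55.7 TPM), Hip1r (41.4 TPM) and Rrs1 (27.2 TPM) came next, each above the next one down in 215 or more libraries. Zdhhc13 (20.2 TPM) and Htt (19.2 TPM) could not be ordered, with Zdhhc13 above Htt in 115 of 233 libraries. Hip1 (14.6 TPM) and F8a (12.5 TPM) were lowest, and Hip1 was above F8a in 144 libraries. By CPM per kilobase of annotated transcript, Rrs1 (12.7) stood above Hip1r (12.4), and the other places were as by TPM. The order was thus a description with unclear places between Hip1r and Rrs1, Sh3gl3 and Hap1, Zdhhc13 and Htt, and Hip1 and F8a.

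Across genes, edgeR's quasi-likelihood test with Benjamini-Hochberg adjustment over all genes tested was used for CPM. In zQ175 DBD against WT DBD of 2M_6M, 1 of the 10 members was higher (17.2% of all genes were) and 4 were lower (11.5% of all genes). In 2M_8M 1 member was higher (9.32%) and 1 lower (9.37%), and in 6M_8M none was called in either direction (3.98% higher and 5.15% lower). In 6M_10M 2 members were higher (11.9%) and 1 lower (12.3%), and in 6M_12M 2 were higher (9.14%) and 0 lower (9.14%). In the mean over cohorts 4 members were higher, against 24.9% of all genes, and 5 lower, against 22.0%. The genotype and repressor comparisons share the zQ175 DBD libraries, so their opposite signs are not independent.

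**Figure D2:**
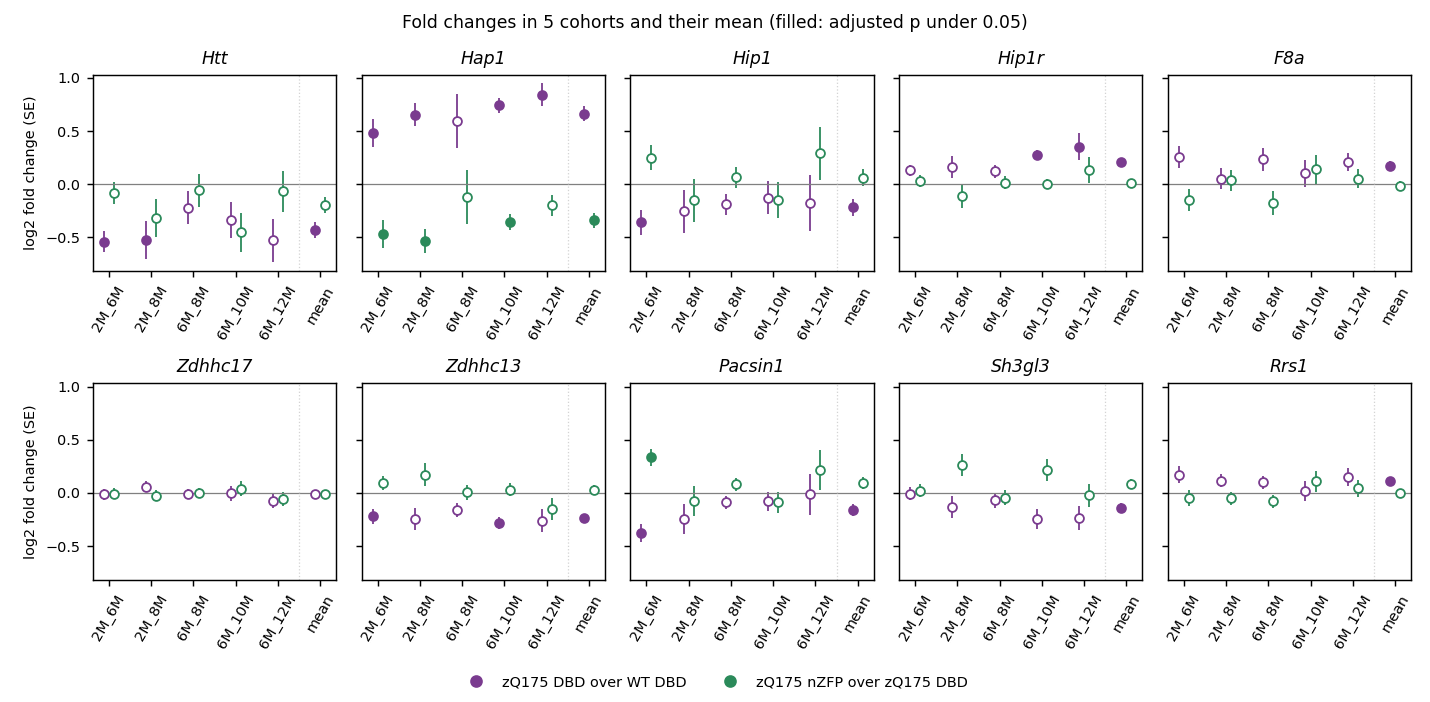
Log2 fold changes in CPM (y axis) of the 10 members, 1 panel each, in the 5 cohorts and their mean. Shown are genotype (zQ175 DBD over WT DBD) and the repressor in zQ175 mice (zQ175 nZFP over zQ175 DBD). Bars are 1 SE, and filled points passed an adjusted p of 0.05. Hap1 lies above 0 for genotype (mean 0.66) and below 0 for the repressor (mean -0.34), while most other members lie near 0 for the repressor.

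Hap1, the huntingtin-associated protein that couples it to motors, is abundant in hypothalamus and septum. It was the member that rose furthest in zQ175 striatum, and its count was lower past the threshold with the repressor in 3 of 5 cohorts. In 2M_6M its lowest, median and highest levels were 96.1, 110 and 142 CPM in zQ175 DBD libraries, against 65.0, 75.8 and 109 CPM in WT DBD. In 2M_8M they were 105, 122 and 129 CPM in zQ175 DBD, against 56.5, 74.8 and 98.3 CPM in WT DBD. In 6M_8M they were 115, 134 and 301 CPM in zQ175 DBD, against 75.5, 85.6 and 157 CPM in WT DBD. Groups were apart in 2M_8M and overlapped in the other two. In 6M_10M they were 122, 132 and 166 CPM in zQ175 DBD, against 74.2, 79.5 and 88.7 CPM in WT DBD. In 6M_12M they were 132, 151 and 189 CPM in zQ175 DBD, against 66.1, 88.0 and 109 CPM in WT DBD. Every zQ175 DBD library was above every WT DBD library in these 2 cohorts.

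The log2 fold change of Hap1 for genotype was 0.48 in 2M_6M (edgeR adjusted p = 0.004), 0.65 in 2M_8M (adjusted p = 1.2e-05), 0.59 in 6M_8M (adjusted p = 0.15), 0.74 in 6M_10M (adjusted p = 6.1e-12) and 0.84 in 6M_12M (adjusted p = 3.9e-08). The mean over cohorts was 0.66 (SE 0.07, adjusted p = 3.8e-17). The highest Hap1 levels of the series were in 6M_8M libraries with high septal and hypothalamic markers. The summed markers were 300 CPM in zQ175 DBD replicate 8, which had 301 CPM of Hap1, and 596 CPM in WT Estop replicate 2, which had 360 CPM of Hap1. Without the 6 such libraries the 6M_8M fold change was 0.50 and passed (SE 0.16, edgeR adjusted p = 0.047). That cut was set after the data were seen, and the summed markers include Baiap3, the gene most like Hap1 over group means (r = 0.98). Just under the cut of 166.58 CPM lay zQ175 Estop replicate 6, with a sum of 166.23 CPM and 217 CPM of Hap1. The call is therefore a description and not a separate test of Hap1. Over all libraries, 3 of the 10 septal and hypothalamic markers tested were higher and 2 lower in the genotype mean; their part in the Hap1 difference was not tested.

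In zQ175 nZFP libraries Hap1 had a lowest, median and highest level of 64.7, 80.5 and 103 CPM in 2M_6M, against 96.1, 110 and 142 CPM in zQ175 DBD. In 2M_8M these were 57.9, 80.5 and 113 CPM in zQ175 nZFP, against 105, 122 and 129 CPM in zQ175 DBD. In 6M_10M they were 96.8, 104 and 118 CPM in zQ175 nZFP, against 122, 132 and 166 CPM in zQ175 DBD. Only in 6M_10M were the groups apart. In 6M_8M they were 95.8, 137 and 249 CPM in zQ175 nZFP, against 115, 134 and 301 CPM in zQ175 DBD. In 6M_12M they were 112, 133 and 150 CPM in zQ175 nZFP, against 132, 151 and 189 CPM in zQ175 DBD. The 6M_8M groups covered each other almost wholly, and those of 6M_12M overlapped in part.

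The fold change of zQ175 nZFP over zQ175 DBD was -0.47 in 2M_6M (edgeR adjusted p = 0.0083), -0.53 in 2M_8M (adjusted p = 0.00077) and -0.35 in 6M_10M (adjusted p = 0.0038), with 23.2%, 7.06% and 0.972% of all genes called. It did not pass in 6M_8M (-0.12, with 0.112% of genes called) or 6M_12M (-0.20, adjusted p = 0.46, with 1.25% called). Hap1 was the only member called in the mean over cohorts (-0.34, SE 0.07, adjusted p = 4.4e-05, with 17.1% of genes called). Within zQ175 mice that had nZFP on one side and DBD on the other, Hap1 was lower on the nZFP side in 16 of 18 (median difference -0.32), and against Estop in 17 of 19. Within WT mice it was lower on the nZFP side than on the DBD side in 9 of 19 and than on the Estop side in 14 of 18. With the Estop virus in place of DBD the fold changes were -0.24 in 2M_8M and -0.25 in 6M_10M and did not pass, and with the mouse as a block that of 2M_6M was -0.50 (adjusted p = 0.097).

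**Figure D3:**
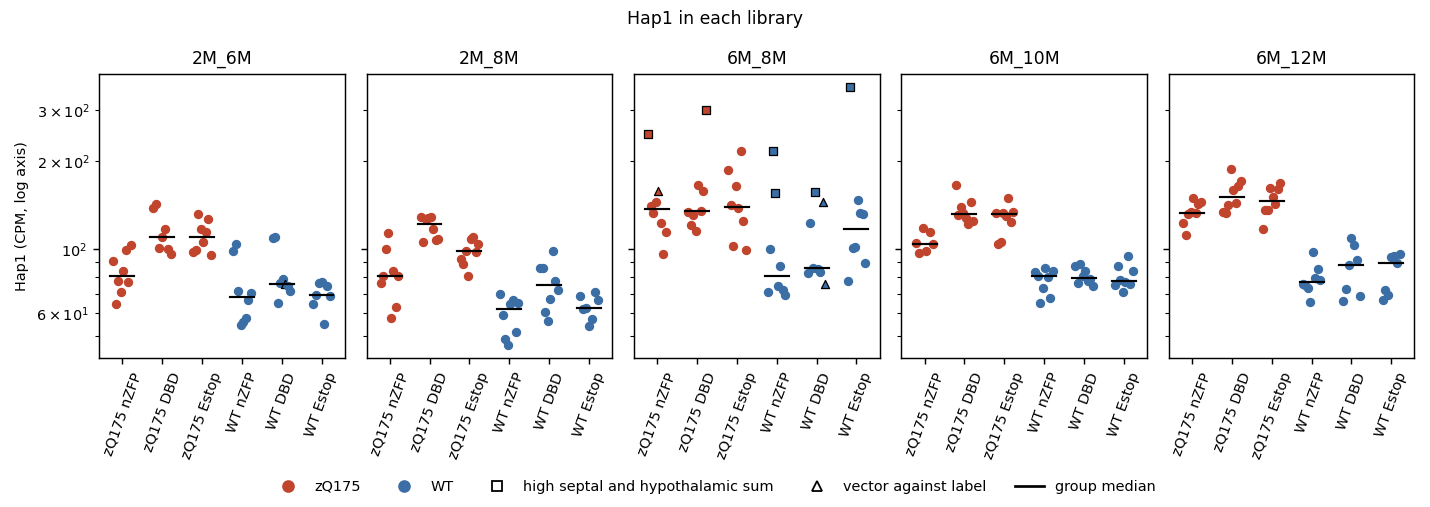
Hap1 level (y axis, CPM, log axis) in each library by cohort and group, with a bar at each group median; squares mark the 6 libraries with high septal and hypothalamic markers and triangles those whose vector reads went against their label. The zQ175 DBD medians of 110 to 151 CPM lie above the WT DBD medians of 74.8 to 88.0 CPM, and the zQ175 nZFP medians lie below zQ175 DBD in every panel but 6M_8M.

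Set against Htt itself, Hap1 had a larger share of counts in zQ175 striatum. The log2 ratio of Htt to Hap1 CPM had a lowest, median and highest value of -1.14, -0.48 and -0.06 in zQ175 DBD of 2M_6M, against 0.11, 0.72 and 0.83 in WT DBD. In 2M_8M it was -0.92, -0.64 and -0.23 in zQ175 DBD, against 0.18, 0.63 and 0.89 in WT DBD. In 6M_12M it was -1.70, -0.89 and -0.45 in zQ175 DBD, against 0.00 at the lowest, 0.42 and 1.19 in WT DBD. In CPM, which takes no account of length, Hap1 exceeded Htt in every zQ175 DBD library and Htt exceeded Hap1 in every WT DBD library of these 3 cohorts. In TPM Hap1 exceeded Htt in every library of both groups, with median log2 ratios of -2.86 to -2.28 in zQ175 DBD over the 5 cohorts, against -2.10 to -1.54 in WT DBD. The difference was -1.04 in 2M_6M, -1.18 in 2M_8M, -0.76 in 6M_8M, -1.02 in 6M_10M and -1.39 in 6M_12M, and exact permutation tests gave an adjusted p between 0.000518 and 0.0028 over the 5 cohorts. With TPM the differences were -0.52, -0.82, -0.46, -0.74 and -1.12 in the same order and passed in each cohort. With Estop in place of DBD the 6M_8M difference was -0.58 and did not pass (exact permutation, adjusted p = 0.0835). Between zQ175 nZFP and zQ175 DBD the ratio did not pass in any cohort (differences of 0.40, 0.19, 0.02, -0.19 and 0.19, lowest adjusted p = 0.0575 by exact permutation).

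**Figure D4:**
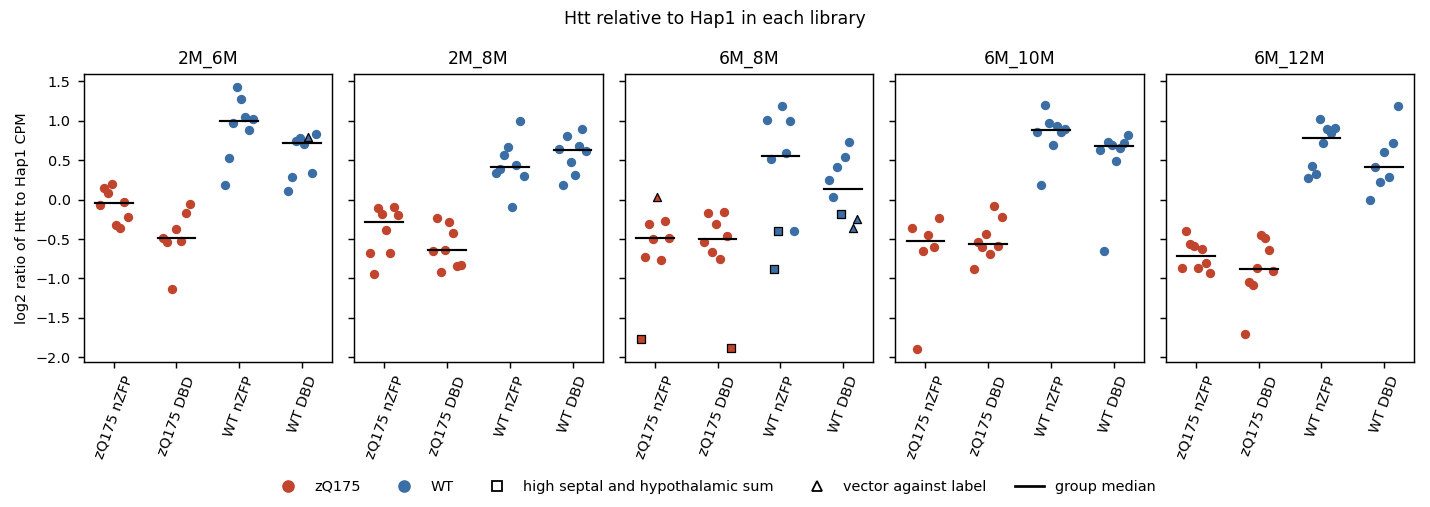
Log2 ratio of Htt to Hap1 (y axis, from CPM) in each library by cohort and group, with a bar at each group median. The zQ175 DBD medians of -0.89 to -0.48 lie below 0, where Hap1 exceeds Htt in CPM, and the WT DBD medians lie above 0.

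Htt CPM itself, without regard to length, was lower in zQ175 DBD than in WT DBD in 2M_6M (45.4, 88.6 and 99.2 CPM at the lowest, median and highest, against 93.8, 128 and 134 CPM). It was also lower in 2M_8M (59.5, 82.1 and 106 CPM in zQ175 DBD, against 78.8, 109 and 158 CPM in WT DBD). Both pairs of groups overlapped. The fold changes were -0.54 (SE 0.10, edgeR adjusted p = 7.8e-05) and -0.53 (SE 0.18, adjusted p = 0.03), and the other 3 cohorts did not pass (-0.22, -0.33 and -0.53). Between zQ175 nZFP and zQ175 DBD the Htt count did not pass in any cohort (-0.08, -0.32, -0.06, -0.45 and -0.07) or in the mean (-0.20, adjusted p = 0.058), in contrast to its value per kilobase of implied length above. In zQ175 mice Htt was lower on the nZFP side than on the DBD side in 15 of 18 animals and than on the Estop side in 19 of 19.

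Among the endocytic partners, Hip1r was higher and Hip1, Pacsin1 and Sh3gl3 were lower in zQ175 striatum in the mean over cohorts. Hip1r, which links clathrin coats to actin, had a lowest, median and highest level of 88.0, 91.7 and 99.5 CPM in zQ175 DBD of 6M_10M, against 65.8, 77.4 and 83.1 CPM in WT DBD. In 6M_12M it had 62.2, 93.5 and 98.9 CPM in zQ175 DBD, against 48.7, 64.8 and 83.3 CPM in WT DBD. All 8 zQ175 libraries lay above the WT range in 6M_10M, and 5 of 8 did in 6M_12M. The fold changes were 0.27 (SE 0.05, edgeR adjusted p = 6.4e-06) and 0.35 (SE 0.13, adjusted p = 0.047). In 2M_6M, 2M_8M and 6M_8M they were 0.13, 0.16 and 0.12 and did not pass, and the mean was 0.21 (SE 0.04, adjusted p = 5.1e-07).

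Pacsin1, a membrane-bending protein of synaptic vesicle recycling, had a lowest, median and highest level of 105, 216 and 231 CPM in zQ175 DBD of 2M_6M, against 239, 263 and 277 CPM in WT DBD, and 229, 256 and 275 CPM in zQ175 nZFP, against the same zQ175 DBD values. The zQ175 DBD libraries lay below every WT DBD library, and 7 of 8 zQ175 nZFP libraries lay above every zQ175 DBD library. It fell by genotype (-0.38, SE 0.08, edgeR adjusted p = 0.00042) and rose with the repressor (0.33, SE 0.08, adjusted p = 0.0031) in this cohort. In the other 4 cohorts it did not pass for either (genotype -0.25 to -0.01, repressor -0.09 to 0.22), and the genotype mean was -0.16 (adjusted p = 0.013). The 2M_6M repressor fold change was 0.09 with Estop in place of DBD and 0.29 with a mouse block, and neither passed. Without zQ175 DBD replicate 3 the 2M_6M fold changes were -0.27 by genotype (adjusted p = 2.9e-05) and 0.22 with the repressor (edgeR adjusted p = 0.0011).

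Hip1, the huntingtin-interacting endocytic adaptor, fell in zQ175 DBD of 2M_6M (15.3, 51.1 and 56.9 CPM at the lowest, median and highest, against 45.5, 58.4 and 64.4 CPM in WT DBD), with a fold change of -0.36 (SE 0.12, edgeR adjusted p = 0.02). The groups overlapped, and the lowest zQ175 value was replicate 3, a library that stood apart, without which the fold change was -0.21 (SE 0.07, adjusted p = 0.011). The other cohorts did not pass (-0.26 to -0.13). Its genotype mean was -0.22 (SE 0.08, adjusted p = 0.019). Sh3gl3, the brain endophilin that binds the huntingtin N-terminus, passed in no single cohort (-0.24 to -0.01) and had a mean of -0.14 (SE 0.04, adjusted p = 0.0028). In 6M_10M it had 49.1, 53.3 and 54.9 CPM in zQ175 DBD, against 52.9, 58.8 and 96.0 CPM in WT DBD, where the highest value was replicate 2, a library that stood apart. In 6M_12M it had 44.5, 56.5 and 76.0 CPM in zQ175 DBD, against 54.4, 66.4 and 86.8 CPM in WT DBD, and the groups overlapped in both cohorts. Neither gene passed between zQ175 nZFP and zQ175 DBD.

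The palmitoyltransferases parted. Zdhhc13, the huntingtin-interacting protein 14-like enzyme, had 16.6, 18.0 and 18.5 CPM at the lowest, median and highest in zQ175 DBD of 6M_10M, against 20.1, 21.4 and 24.2 CPM in WT DBD. In 2M_6M it had 14.7, 19.9 and 21.0 CPM in zQ175 DBD, against 20.1, 21.9 and 24.2 CPM in WT DBD. Groups were apart in 6M_10M and overlapped in 2M_6M, where 4 of 7 zQ175 libraries lay below the WT range. It fell by 0.28 on the log2 scale in 6M_10M (SE 0.05, edgeR adjusted p = 6.6e-05) and by 0.22 in 2M_6M (SE 0.07, adjusted p = 0.015). The other cohorts had -0.25, -0.16 and -0.26 and did not pass (6M_8M passed at -0.21 without libraries against their labels), and the mean was -0.23 (SE 0.04, adjusted p = 1.9e-08). Zdhhc17, the main huntingtin palmitoyltransferase (huntingtin-interacting protein 14), was level within its spread. In 6M_8M it had 110, 122 and 131 CPM in zQ175 DBD, against 113, 121 and 129 CPM in WT DBD. Its genotype mean was -0.01 (SE 0.03, adjusted p = 0.84) and its cohort values ran from -0.08 to 0.06. Neither enzyme passed with the repressor, although Zdhhc13 was higher on the nZFP than on the DBD side in 15 of 18 zQ175 mice (median difference 0.09).

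F8a, an X-linked single-exon gene whose protein HAP40 binds huntingtin, and Rrs1 passed only in the mean of the cohorts. F8a had 16.0, 16.8 and 19.4 CPM at the lowest, median and highest in zQ175 DBD of 6M_12M, against 11.2, 15.0 and 17.9 CPM in WT DBD. All 5 of its cohort fold changes were positive (0.05 to 0.26), and the mean was 0.17 (SE 0.05, edgeR adjusted p = 0.0017). Rrs1 had 23.7, 27.2 and 29.1 CPM in zQ175 DBD of 2M_8M, against 24.0, 24.8 and 26.1 CPM in WT DBD, so that 7 of 8 zQ175 libraries lay above the WT range and 1 below it. Its cohort values ran from 0.02 to 0.17 and the mean was 0.11 (SE 0.03, adjusted p = 0.0044). With the repressor the means of both genes were close to 0 (-0.02 for F8a and -0.00 for Rrs1) and did not pass.

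Several of these levels moved with the share of counts on long transcripts. An index of that share ran from -0.58 to 1.30 over the libraries, with a median of 0.94. It was the mean log2 CPM of 4415 genes with over 6000 exonic bases, minus that of 1396 genes with under 2000. Within groups, over 233 libraries, Pearson's r with the index was 0.95 for Hip1, 0.91 for Htt, 0.87 for Pacsin1 and 0.67 for Hip1r. It was -0.85 for Sh3gl3, -0.47 for F8a and -0.43 for Rrs1, and 0.32, 0.23 and -0.28 for Zdhhc17, Hap1 and Zdhhc13. These values include the 3 libraries that stood apart, whose index was -0.58, -0.55 and -0.34, and r without them is not given here. With those libraries included, Hip1, Htt and Pacsin1 shared much of their spread between libraries, and Hap1 little of it. The order did not follow length alone, as Pacsin1 had an effective length of 3166 bases and Zdhhc17 of 4338 bases. With the index as a covariate the genotype means were -0.43 for Htt, -0.24 for Hip1, -0.18 for Pacsin1 and -0.13 for Sh3gl3. In the same fit the repressor means in zQ175 mice passed for Htt (-0.21, edgeR adjusted p = 3.6e-08), Hip1 (0.08, adjusted p = 0.016), Pacsin1 (0.10, adjusted p = 0.0039) and Sh3gl3 (0.08, adjusted p = 0.00054). The interaction mean of Htt was -0.31 (edgeR adjusted p = 9.9e-08). Of 16792 genes in this fit, 9578 passed in the genotype mean, 4734 in the repressor mean in zQ175 mice and 1189 in the interaction mean.

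**Figure D5:**
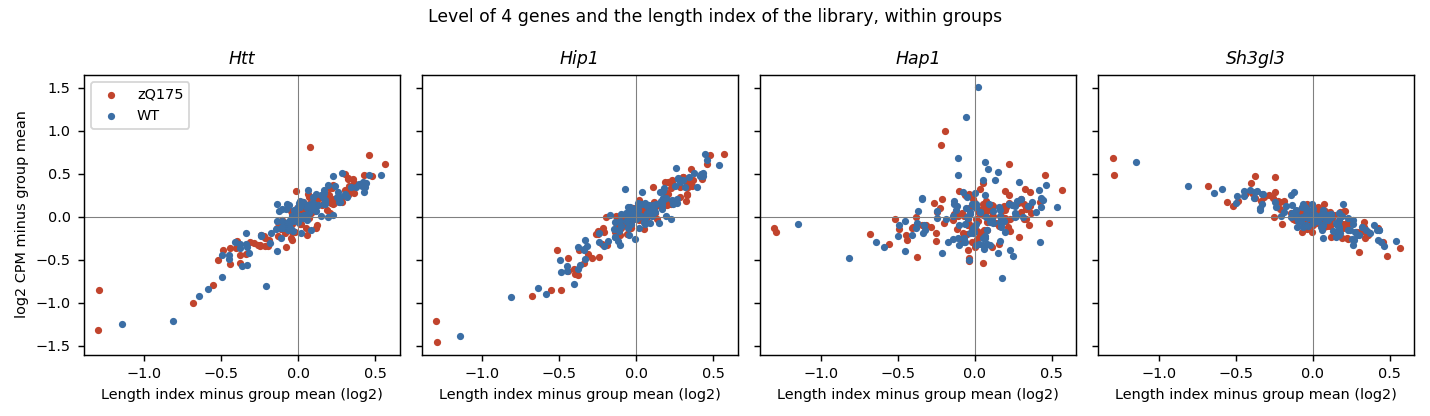
Level of members (y axis, log2 CPM relative to the group mean) against the index of counts on long over short transcripts (x axis, relative to the group mean), 1 point per library. Htt and Hip1 rise with the index, Sh3gl3 falls, and Hap1 has little slope.

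Some further calls appeared once libraries in doubt were left out. The shares of all genes called in these fits are not given here, so the calls cannot be read as particular to the members. Without those that stood apart, the 6M_10M genotype fold change passed for Htt (-0.46, edgeR adjusted p = 0.001), Hip1 (-0.25, adjusted p = 0.013), Pacsin1 (-0.16, adjusted p = 0.0022) and Sh3gl3 (-0.14, adjusted p = 0.022), and that of 2M_6M for Hip1r (0.17, adjusted p = 0.007). Without those against their labels, the 6M_8M genotype fold change of Hip1r was 0.21 and passed (adjusted p = 0.0057), and the repressor mean of Htt in zQ175 mice was -0.22 and passed (adjusted p = 0.024).

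In WT striatum no member passed between nZFP and DBD in any cohort or in the mean, where 0.268%, 2.98%, 0.581%, 0.480% and 0.238% of all genes passed in the 5 cohorts and 3.33% in the mean. The nearest was Hap1 in 2M_8M, with 46.5, 61.8 and 69.8 CPM at the lowest, median and highest in WT nZFP, against 56.5, 74.8 and 98.3 CPM in WT DBD (-0.36, edgeR adjusted p = 0.054). Without the libraries with high septal and hypothalamic markers the mean Hap1 difference in WT mice was -0.21 and passed (edgeR adjusted p = 0.0049). That cut was set after the data were seen. The interaction of repressor and genotype was called for no member, against 3.27%, 1.99%, 0%, 0.0505% and 0% of all genes in the cohorts and 3.64% in the mean. For Hap1 the interaction mean was -0.20 and did not pass (edgeR adjusted p = 0.33).

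Under the repressor, zQ175 nZFP against WT nZFP, 3 members were higher in the mean (19.3% of all genes were) and 2 lower (17.0%). Hap1 was still higher (0.47, edgeR adjusted p = 2.4e-09), as were Hip1r (0.22, adjusted p = 5.1e-07) and F8a (0.23, adjusted p = 1.9e-05). Htt was lower (-0.63, adjusted p = 4.2e-13), as was Zdhhc13 (-0.22, adjusted p = 2.7e-07). In 2M_6M 0 members were higher (0.874% of all genes) and 1 lower (0.664%), and in 2M_8M 1 was higher (4.05%) and 0 lower (2.62%). In 6M_8M 1, Hip1r, was higher (7.89%) and 1 lower (9.18%). Without the septal and hypothalamic libraries, by the cut set after the data were seen, Hip1r did not pass and Hap1 did (0.72). The other cohorts had more calls, with 2 members higher (10.3%) and 3 lower (9.28%) in 6M_10M, and 3 higher (7.93%) and 2 lower (8.75%) in 6M_12M. Between the control viruses, DBD against Estop, the Htt count in zQ175 mice of 2M_6M was the only member call (-0.45, SE 0.10, adjusted p = 0.019). Without zQ175 DBD replicate 3, which stood apart, it was -0.34 and did not pass (adjusted p = 0.053). In zQ175 mice 4.50%, 0.184%, 0.0562%, 0.234% and 0.290% of all genes passed between these viruses in the 5 cohorts and 2.70% in the mean, and in WT mice 0.108%, 0.196%, 0.188%, 0.669% and 0.167%, and 3.26% in the mean. No member's genotype fold change differed past the threshold between 6M_12M and 2M_6M (0.238% of all genes called), and no member's repressor fold change in zQ175 mice differed between 2M_8M and 6M_12M (0.0834% called).

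Wider lists of the same machinery held genes called in both directions, to be read against the 24.9% of all genes that were higher and 22.0% that were lower in the genotype mean. In the genotype mean 6 of 27 endocytosis genes were higher and 5 lower, with Snap91, a clathrin assembly protein, at 0.18, Picalm at -0.11 and Pacsin2 at -0.18. Of 19 palmitoyltransferases tested 6 were higher and 4 lower, with Zdhhc2 at 0.28, Zdhhc18 at -0.25 and Zdhhc12 at -0.41. Of 22 axonal transport genes 6 were higher and 6 lower, with the dynein chain Dync1i1 at 0.17 and the kinesin Kif5c at -0.22. Of 30 other genes of huntingtin-binding proteins 6 were higher and 9 lower. The medians of the 4 lists were 0.00, 0.06, 0.07 and -0.00, against 0.01 over all genes tested.

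Ahi1, whose protein forms a stable complex with Hap1, rose in all 5 cohorts by genotype (0.70, 0.83, 0.57, 0.77 and 0.84, mean 0.74, SE 0.05, edgeR adjusted p = 8.9e-33). With the repressor in zQ175 mice it fell in 2M_6M (-0.55) and 2M_8M (-0.53), did not pass in the other 3 cohorts and had a mean of -0.31 (adjusted p = 1.2e-07). The scaffold Git1 was lower by genotype in all 5 cohorts and passed in 4 (mean -0.45). With the repressor its fold change was positive in each cohort and passed in 2M_6M and 2M_8M (mean 0.37, edgeR adjusted p = 1.4e-14). Itpr1, the inositol trisphosphate receptor that Hap1 and huntingtin bind, had positive fold changes with the repressor in each cohort. It passed only in 2M_6M (0.95) and in the mean (0.47, edgeR adjusted p = 7e-08). In the repressor mean, where 17.1% of all genes were called in either direction, 3 of 27 endocytosis genes were higher and 1 lower, and 2 of 19 palmitoyltransferases were higher. Of 22 axonal transport genes 3 were higher and 2 lower, and of 30 other binding genes 4 were higher and 3 lower. Among these, Mapk8ip1 (0.12), Zdhhc18 (0.14), Zdhhc12 (0.24) and the clathrin adaptor subunit Ap2m1 (0.08) rose, and Dync1i1 (-0.12) and Eps15 (-0.09) fell. Ap2a1 (0.05), Dync1i2 (-0.08) and Zdhhc20 (-0.12) did not pass in the mean. By genotype the motor adaptor Mapk8ip1 was lower, with a mean of -0.18.

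Markers of medium spiny neurons moved beside these results: 14 of 15 were lower and none higher in the genotype mean, and 13 of 15 were higher and none lower with the repressor in zQ175 mice. Their summed median was 16045 CPM in zQ175 nZFP, against 9849 CPM in zQ175 DBD and 18389 CPM in WT DBD of 2M_6M, and 10463, 9376 and 15037 CPM in the same groups of 6M_8M. Cortical neuron markers had 5 of 10 higher and 2 lower by genotype and 1 and 1 with the repressor. By genotype 7 of 8 astrocyte, 5 of 8 microglial, 4 of 8 oligodendrocyte and 4 of 6 endothelial markers were lower, and 3 oligodendrocyte markers were higher. With the repressor 3 microglial markers were higher and no other glial or endothelial marker passed. The part of cell makeup in the members' differences was not tested.

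Across the 30 group means, Hap1 and Zdhhc13 had Pearson's r = -0.93, Hip1 and Pacsin1 r = 0.89, Hip1r and Sh3gl3 r = -0.83, Htt and Pacsin1 r = 0.74 and Hap1 and Hip1r r = 0.71. Groups share cohorts, mice and the length index, and these values are descriptions. Among 13451 genes, those most like Htt over the group means were Prkcb (0.88), Tppp and Pdxk (0.87 each) and Dab1 and Cdh4 (0.85 each), and those most like Hap1 were Baiap3 (0.98), Wdr6 (0.97) and Galnt16 (0.96).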

How the data were processed

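Striatal polyA RNA was sequenced as paired-end libraries made with the NEB Next Ultra kit after Qiagen RNeasy Micro extraction, per the labels' protocols. The authors deposited expected counts per gene from RSEM against GRCm38, per the submitters' processing notes. No RSEM version, annotation or strand setting for counting is given in the sources used here. Of the expected counts 90.4% were whole to within 1e-06, and all were rounded for the count tests. A second deposited table, named for FPKM, sums to the same total in every column and was read as TPM, deposited by the authors. Both tables list 41135 entries, of which 6 are vector sequences (at most 0.669% of a library) and were left out. Totals were 27993227 to 61296096 counts, and intervals cover counting error only.

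The members and gene lists were chosen with earlier results of these data known. All members were named, with up to 3 genes per pathway list and comparison by the smallest geometric mean p over cohorts, and the genes most correlated with Htt (5) and Hap1 (3). Not every gene that this rule names is reported here. Samples were grouped by genotype, virus and cohort from the labels. CPM used TMM library sizes, and edgeR 4.0.16 in R 4.3.3 fitted quasi-likelihood models with sex as a covariate after filterByExpr, 1 fit per cohort of 6 groups (15523 to 16000 genes) and 1 of all 30 groups for means and differences between cohorts (16792 genes). SE is the fold change over the square root of F. DESeq2 1.42.0 was an alternative. The implied length (count over TPM, scaled in each library on single-transcript genes less a fragment allowance of 200 bases) was added after the data were seen and tested with limma 3.58.1 on 5326 genes with an SD of log2 length of at least 0.01; 10513 genes had a mean TPM of at least 5 and a mean count of at least 100. Ratios used a pseudocount of 0.5 CPM and exact permutation tests (scipy 1.17.1). Scripts were tested on simulated data. The labels tie 2 libraries to 1 mouse; fits do not, except with the mouse as a block. The other alternatives were no filter, Estop in place of DBD, the length index as a covariate, a replicate block, a pseudocount of 2 CPM, and libraries in doubt left out. Coordinates are GRCm38 (GENCODE vM21).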

Additional observations from a re-analysis of the deposited data

Results flagged for a closer look

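In 330 group and measure pairs the highest or lowest library was compared with the rest of its group by Dixon's test; 53 stood past the 95% critical value, where chance gives about 1 in 20 (16.5), and they came from 24 libraries. Many belonged to the 3 libraries named as standing apart. In zQ175 DBD replicate 3 of 2M_6M these were Htt (45.4 CPM), Hip1 (15.3), Hip1r (68.5), Zdhhc17 (83.6), Pacsin1 (105), Sh3gl3 (81.4), Rrs1 (38.3 CPM) and the implied Htt length (4714 bases). In zQ175 nZFP replicate 2 of 6M_10M they were Htt (25.8 CPM), Hip1 (18.8), F8a (24.0), Zdhhc17 (89.2), Zdhhc13 (14.5), Pacsin1 (127), Sh3gl3 (95.2 CPM) and the implied Htt length (8957 bases). In WT DBD replicate 2 of 6M_10M they were Htt (48.4 CPM), Hip1 (20.2), F8a (18.8), Zdhhc17 (87.8), Pacsin1 (148), Sh3gl3 (96.0), Rrs1 (33.3 CPM) and the implied Htt length (11830 bases).

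Among 6M_8M libraries with high septal and hypothalamic markers, Hap1 stood out at 301 CPM in zQ175 DBD replicate 8, 249 CPM in zQ175 nZFP replicate 1 and 360 CPM in WT Estop replicate 2. The same zQ175 DBD replicate 8 stood out for Hip1 (41.1 CPM), F8a (20.6 CPM) and Sh3gl3 (57.1 CPM). Of the libraries against their labels, zQ175 nZFP replicate 5 of 6M_8M stood out for Htt (162 CPM) and Hip1r (79.8 CPM), and WT DBD replicate 7 of 6M_8M for the implied Htt length (11017 bases).

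The remaining values were spread over other libraries. For Htt they were 52.4 CPM in WT nZFP replicate 8 of 6M_8M, which also had 169 CPM of Pacsin1, and an implied length of 12277 bases in WT nZFP replicate 3 of 2M_8M. For Hip1 they were 58.6 CPM in zQ175 DBD replicate 8 and 40.1 CPM in WT nZFP replicate 2 of 6M_10M, and 32.1 CPM in zQ175 nZFP replicate 1 of 6M_12M. Pacsin1 had 192 CPM in that last library and 260 CPM in WT Estop replicate 3 of 6M_10M. Sh3gl3 had 69.2 CPM in WT DBD replicate 7 of 2M_6M, 67.6 CPM in zQ175 Estop replicate 7 and 46.2 CPM in WT Estop replicate 1 of 6M_8M, and 71.2 CPM in WT nZFP replicate 2 of 6M_10M. Zdhhc17 had 105 CPM in WT DBD replicate 7 of 2M_6M and 143 CPM in WT Estop replicate 5 of 2M_8M, and Zdhhc13 had 21.6 CPM in zQ175 DBD replicate 2 of 6M_8M. Hip1r had 64.5 CPM in WT Estop replicate 1 of 2M_6M, and F8a had 7.90 CPM in WT Estop replicate 7 of 6M_10M. Rrs1 had 27.9 CPM in zQ175 Estop replicate 3 of 2M_8M, 22.3 CPM in zQ175 DBD replicate 2 and 14.7 CPM in WT DBD replicate 8 of 6M_12M.

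The repressor's effect on implied length differed between zQ175 and WT mice by an interaction test (limma). For Htt the difference of differences was 0.24 in 2M_8M, 0.22 in 6M_8M, 0.22 in 6M_12M and 0.25 in the mean, and in 2M_8M it was -0.12 for Zdhhc13 and -0.11 for Pacsin1.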

How the results depend on the processing

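Calls are counted here over members and cohorts (up to 50) or over members in the mean (up to 10), and those of the control viruses are summed over zQ175 and WT mice. With the length index as a covariate, calls were 25 for genotype (12 as reported), 9 for the repressor in zQ175 mice (4), 24 for genotype under repressor (14), 5 for the control viruses (1) and 3 for the interaction (0). In the means they were 5, 1, 8, 4 and 1 for the repressor in zQ175 mice (1), the repressor in WT mice (0), genotype under repressor (5), the control viruses (0) and the interaction (0). Over all 16792 genes the same covariate moved the means to 4734 calls (2875 as reported), 1164 (559), 7451 (6092), 985 (453) in zQ175 and 1252 (547) in WT mice for the control viruses, and 1189 (611) in that order, and the genotype mean to 9578 (7880). With Estop in place of DBD the repressor in zQ175 mice had 2 calls, and 3 in the mean, and that in WT mice 1 in the mean. DESeq2 gave 1 call for the repressor in WT mice, 2 for the control viruses and 1 in their mean. Without libraries that stood apart the control viruses had 0 calls and the repressor in WT mice 1 in the mean. Without libraries against their labels, alone or with the septal and hypothalamic ones, the repressor in zQ175 mice had 2 in the mean. Without the septal and hypothalamic ones, alone or jointly, the repressor in WT mice had 1 in the mean, and without them alone the control viruses had 1. With the mouse as a block the repressor in zQ175 mice had 2 calls. Apart from the means under the length index, the shares of all genes called under the alternatives of this section are not given here. The counts of calls can therefore not be read as particular to the members.

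Replicate numbers were not taken as pairs. Over 10 comparisons the median correlation of same-numbered libraries ran from -0.3705 to 0.594, and the lowest from -0.604 to 0.029. In 6M_12M all 7 pairs of zQ175 DBD and WT DBD were positive (0.029 to 0.787). With a replicate block the repressor had 7 calls in zQ175 mice and 1 in WT mice. Means then had 2, 1 and 2 calls for the repressor in zQ175, in WT mice and for the control viruses, and differences between cohorts had 1. Htt length under the repressor passed in 5 cohorts by exact permutation and in 2 each with the length index, with the replicate block, without libraries against their labels and without those that stood apart (1 as reported), and its interaction in 5 with the length index and 5 without those that stood apart (3).

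Of 1029 single values under alternatives, 930 kept their side, 38 newly passed, 17 no longer passed and 44 changed sign. For the Htt to Hap1 ratio with the repressor these were, with TPM, -0.0389 (2M_6M), -0.0155 (2M_8M), -0.226 (6M_8M) and -0.0396 (6M_12M). With Estop they were -0.116, -0.106, -0.188 and -0.138 in the same cohorts. In 6M_8M the ratio was -0.0689 without libraries against their labels and -0.0702 without these and the septal and hypothalamic ones, and in 6M_10M it was 0.0457 without those that stood apart. Among means with Estop, Zdhhc17 had 0.0107 for genotype and -0.0133 for the interaction, Hip1r -0.0561 and Rrs1 0.0280 for the repressor in zQ175 mice, Htt -0.231, Hip1r -0.0492 and Zdhhc13 -0.0460 for the repressor in WT mice, and Hip1r -0.00695 for the interaction. Without libraries in doubt, Zdhhc17 had 0.00256 and Rrs1 0.000808, 0.00103 and 0.00036 for the repressor in zQ175 mice, Htt -0.0124 and -0.0166 for the repressor in WT mice, Zdhhc17 0.0103 and Rrs1 -0.0161 for genotype under repressor, and Hip1r -0.000585 and -0.0142 for the interaction. With the length index, Hip1 had 0.0141 and Pacsin1 0.0507 for the repressor in WT mice, and Hip1r -0.0155 and Zdhhc17 -0.0042 for the interaction. For Htt length with the repressor in WT mice they were -0.00537 with the length index and -0.00248 without libraries against their labels (2M_6M), -0.0023 (6M_8M), -0.00492 (6M_10M), -0.00302 (6M_12M) and -0.00323 (mean) with Estop, and in 6M_10M -0.0175 with the length index and -0.00415 without libraries that stood apart. Htt per kilobase of implied length by genotype was -0.165 in 6M_8M and -0.310 in 6M_10M with Estop, and -0.139 in 6M_10M without libraries that stood apart.

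Fits treat hemispheres of 1 mouse as independent, and the length index and implied length come from the same tables as the levels.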

Other observations

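Within mice, the Htt count differed between the control viruses as well. It was lower on the DBD than on the Estop side in 16 of 20 zQ175 mice (median log2 difference -0.25) and in 14 of 19 WT mice (median -0.16). Pacsin1 was lower on the DBD side in 16 of 20 zQ175 mice (median -0.15) and in 17 of 19 WT mice (median -0.14), and Hip1r in 17 of 20 (median -0.12) and 14 of 19 (median -0.10). Hap1 was higher on the DBD side in 12 of 20 zQ175 mice (median 0.21) and in 14 of 19 WT mice (median 0.20). Sh3gl3 was higher on the DBD side in 15 of 20 zQ175 mice (median 0.10) and 13 of 19 WT mice (median 0.06). These are counts of mice without a test.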
